A study of Arabidopsis thaliana with 6 samples.

Results

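The core circadian oscillator of *Arabidopsis thaliana* was read from 10 genes, *CCA1*, *LHY*, *PRR9*, *PRR7*, *PRR5*, *TOC1*, *ELF3*, *ELF4*, *LUX* and *GI*, chosen by name as the textbook clock genes, out of 37184 genes counted. All 10 passed the filter on low counts and were among the 21705 genes tested. The study set *nol12-4*, a homozygous line with a T-DNA insertion in *AtNOL12*, against wild type (WT, Col-0), the background of that line. AtNOL12 is a nucleolar protein of pre-rRNA processing. Whole seedlings of both genotypes were grown on medium with sucrose and taken 14 days old from long days of 16 h light and 8 h dark, with 3 RNA-seq libraries each, and *nol12-4* is a single insertion line. The hour of harvest is not given in the labels or the methods.

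The plant clock is a loop of repressors that peak one after another through the day. *CCA1* and *LHY* peak around dawn and repress the genes of the evening. *PRR9*, *PRR7* and *PRR5* follow in this order from morning to afternoon and repress *CCA1* and *LHY*. *GI* peaks late in the day. *TOC1* and the evening complex of ELF3, ELF4 and LUX act around and after dusk. No series of times was sampled, so each library gives a single set of levels that can be placed beside this sequence. In RNA of whole seedlings, fewer cells of a type and less RNA per cell cannot be told apart.

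The libraries held 56627497 to 75001252 counts on genes, of which 47.1 to 56.6% lay on organelle genes, and the 10 clock genes took 0.0317 to 0.0588%. *AtNOL12* (AT1G11240) had 1186, 770 and 2142 counts in the libraries labelled *nol12-4* and 663, 642 and 894 counts in the WT libraries. A count summed over all exons does not part the sides of an insertion, so it does not check the labels, and "*nol12-4*" below means the libraries labelled so. The 3 of them did not form a group for the clock genes: replicates 1 and 2 lay on one side, and replicate 3 lay with WT. Results that rest on this are given with and without replicate 3 of *nol12-4*.

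Stretches of promoter with known clock elements are shown here because the genes fell into sets that moved together across libraries. They come from the 500 bases before each annotated gene start (RefSeq annotation, TAIR10.1 assembly), are written 5′ to 3′ on the strand of the gene, and carry the matched motif in capitals. The G-box, CACGTG, is bound by light-signalling and other bHLH and bZIP factors. It was found before *CCA1* (chr2:19245388-19245413, plus strand), *LHY* (chr1:37936-37961, minus strand), *PRR9* (chr2:19232353-19232378 and chr2:19232425-19232450, plus strand), *PRR7* (chr5:642216-642241, minus strand) and *LUX* (chr3:17182839-17182864, plus strand).
*CCA1* G-box: gtgtatcagaCACGTGtcgacaaact
*LHY* G-box: acaatatcacCACGTGtcgatctgcg
*PRR9* G-box, upstream copy: aatagaaaccCACGTGtcatccacat
*PRR9* G-box, downstream copy: aggttaatgaCACGTGttaaggtgga
*PRR7* G-box: cccaccattaCACGTGtcagttcaaa
*LUX* G-box: cttttcactcCACGTGgctccatctt

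The evening element, AAAATATCT, is the site through which CCA1 and LHY act on evening genes. It was found before *PRR5* (chr5:8358820-8358848 and chr5:8358715-8358743, minus strand), *TOC1* (chr5:24674802-24674830, plus strand) and *LUX* (chr3:17182979-17183007, plus strand). In *PRR5* and *TOC1* the element lies on the other strand and reads AGATATTTT.
*PRR5* evening element, upstream copy: caattctactAGATATTTTttcaaatcca
*PRR5* evening element, downstream copy: gattttttctAGATATTTTcttttctcca
*TOC1* evening element: aaatatcatgAGATATTTTctccaagatg
*LUX* evening element: tagaagatctAAAATATCTagctaactcg

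Both strands were searched, and no printed match overlapped another motif. The evening element was present before 3 of the 10 clock genes and before 4.44% of 27443 protein-coding genes, and the G-box before 5 of 10 and 9.35%. The CCA1-binding site, AAAAATCT, was present before 3 of 10 (*LHY*, *PRR9* and *PRR5*) and 12.5% of promoters. The LUX-binding site, GATTCG or GATACG, was present before 5 of 10 (*PRR9*, *TOC1*, *ELF3*, *ELF4* and *LUX*) and 22.6%. *GI* carried none of the 4 motifs in this window. The annotated *PRR5* model begins at its coding sequence, so its window is counted from there. The motifs did not divide the genes as the levels below did. The G-box lay before *PRR7* and *LUX* as well as the dawn genes, and *ELF3* and *ELF4* had no evening element. A match is a description of letters and was not tested for binding or for a link to the levels.

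*CCA1* (AT2G46830, chr2:19245591-19248915, plus strand) and *LHY* (AT1G01060, chr1:33365-37871, minus strand) encode related MYB repressors of the dawn. By replicate number, as in all such lists here, *CCA1* stood at 96.8, 94.1 and 2.44 CPM (counts scaled to library size with edgeR's TMM factors) in *nol12-4*, against 1.1, 1.53 and 3.52 CPM in WT. *LHY* stood at 58.6, 49.5 and 0.970 CPM in *nol12-4* and 1.13, 1.24 and 1.06 CPM in WT. Both genes were high in 2 *nol12-4* libraries and near the floor of their range in the other 4, so the genotypes overlapped. The highest library exceeded the lowest 88.1-fold for *CCA1* and 60.4-fold for *LHY*. The estimate for *CCA1* was a log2 fold change of 4.98 (standard error 1.23), with an adjusted p of 0.0976 by edgeR's quasi-likelihood test (Benjamini-Hochberg over all tested genes) and 0.00270 by DESeq2. For *LHY* it was 4.99 (standard error 1.24), with an adjusted p of 0.0976 by edgeR and 0.00248 by DESeq2. Means were 64.4 ± 53.7 CPM in *nol12-4* and 2.05 ± 1.29 CPM in WT for *CCA1* (SD, n = 3 each), so the spread within *nol12-4* was close to its mean.

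**Figure D1:**
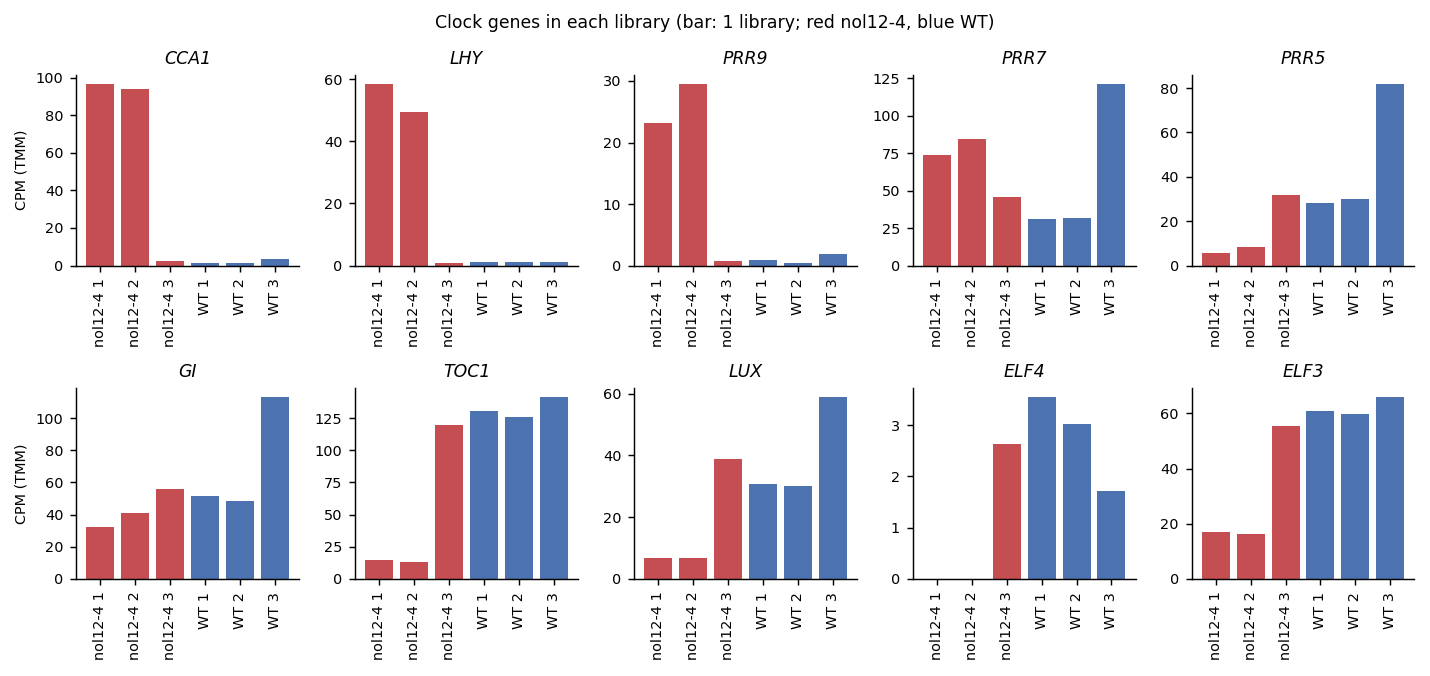
Level of the 10 clock genes in each library, in CPM (TMM-normalized, linear axis from 0), with 1 bar for each library, *nol12-4* in red and WT in blue. *CCA1*, *LHY* and *PRR9* were high in *nol12-4* replicates 1 and 2 alone, and *TOC1*, *LUX*, *ELF4* and *ELF3* were low in these libraries, while *nol12-4* replicate 3 resembled WT.

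*PRR9* (AT2G46790, chr2:19232607-19235179, plus strand), *PRR7* (AT5G02810, chr5:637681-642030, minus strand) and *PRR5* (AT5G24470, chr5:8356204-8358546, minus strand) encode the pseudo-response regulators that close off the expression of *CCA1* and *LHY* through the day. *PRR9* stood at 23.1, 29.6 and 0.776 CPM in *nol12-4*, against 0.859, 0.374 and 1.91 CPM in WT. It thus shared the split of *CCA1* and *LHY*, with replicate 2 of *nol12-4* highest. The estimate was 4.08 (standard error 1.19), with an adjusted p of 0.133 by edgeR and 0.0234 by DESeq2.

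*PRR7* stood at 73.5, 84.7 and 45.8 CPM in *nol12-4* and 31.3, 31.6 and 121 CPM in WT. Here the highest library was WT replicate 3, and the genotypes overlapped widely. Its fold change was estimated at 0.15 on the log2 scale (standard error 0.55, adjusted p = 0.904 with edgeR), which turned negative without *nol12-4* replicate 2 (−0.047), WT replicate 1 (−0.17) or WT replicate 2 (−0.17). Without WT replicate 3 it was 1.11 (adjusted p = 0.0816 with edgeR), so the value near 0 rested on that library. *PRR5* stood at 5.45, 8.15 and 31.8 CPM in *nol12-4* and 28.0, 30.0 and 82.0 CPM in WT. Its lowest values were in *nol12-4* replicates 1 and 2, and WT replicate 3 again was far above the others. The estimate for *PRR5* was −1.62 (standard error 0.72, adjusted p = 0.265 with edgeR), and −0.94 without WT replicate 3.

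*GI* (AT1G22770, chr1:8061751-8067790, plus strand) encodes a large protein that works with the F-box protein ZTL, which marks TOC1 for degradation. It stood at 32.1, 41.1 and 56.0 CPM in *nol12-4* and 51.3, 48.6 and 113 CPM in WT. The range was narrow (3.53-fold from lowest to highest) compared with the genes of dawn, and WT replicate 3 held the top. The estimate was −0.72 (standard error 0.37, adjusted p = 0.32 with edgeR), and −0.22 without WT replicate 3.

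*TOC1* (AT5G61380, chr5:24674963-24678550, plus strand) encodes the evening member of the pseudo-response regulators. It stood at 14.7, 13.1 and 120 CPM in *nol12-4*, against 130, 126 and 141 CPM in WT. All 3 *nol12-4* values lay below those of WT, but replicate 3 was lower than the nearest WT library by 0.071 on the log2 scale, against a WT range of 0.17. The estimate was −1.43 (standard error 0.81, adjusted p = 0.368 with edgeR), and DESeq2 gave no p for this gene.

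The evening complex followed *TOC1*. *ELF3* (AT2G25930, chr2:11058944-11063324, plus strand), which encodes its scaffold, stood at 17.1, 16.3 and 55.5 CPM in *nol12-4* and 60.8, 59.7 and 66.0 CPM in WT. *LUX* (AT3G46640, chr3:17183042-17186959, plus strand), which encodes its DNA-binding subunit, stood at 6.67, 6.63 and 38.7 CPM in *nol12-4* and 30.6, 30.1 and 58.9 CPM in WT. *ELF4* (AT2G40080, chr2:16734294-16734953, minus strand), which encodes a small partner of ELF3, had 0, 0 and 204 counts in *nol12-4* and 252, 202 and 115 counts in WT. Each of the 3 genes was low or without a count in *nol12-4* replicates 1 and 2 only. A count of 0 allows up to 0.0408 CPM in replicate 1 and 0.0513 CPM in replicate 2 (3 counts, counting error only), and *ELF4* stood at 2.64 CPM in replicate 3. Estimates were −1.07 for *ELF3* (standard error 0.46), −1.20 for *LUX* (standard error 0.71) and −1.63 for *ELF4* (standard error 1.49). Their adjusted p with edgeR was 0.255, 0.385 and 0.575 in this order.

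Over all 6 libraries edgeR called 0 of the 10 genes higher and 0 lower, where it called 0.226% of all tested genes higher and 0.0691% lower. Before adjustment, 3 genes stood higher (*CCA1*, *LHY* and *PRR9*) and 0 lower with p below 0.05 in edgeR, against 12.1% and 7.91% of all tested genes. DESeq2, the tool of the study, called these 3 higher and 0 lower of the 9 for which it gave an adjusted p, against 6.2% higher and 3.21% lower of all genes. The genotypes did not overlap for 0 genes in the higher direction and 2 in the lower (*TOC1* and *ELF3*), where the shares over all tested genes were 14.5% and 11.6%. The median log2 fold change of the 10 was −0.89, beside −0.0091 for all tested genes, and it mixes 4 positive with 6 negative estimates.

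These calls depended on replicate 3 of *nol12-4*. This library was singled out by the values of these same genes, so the p-values without it describe and do not test a difference. Without it edgeR called 3 of the 10 genes higher (4.71% of all genes in that fit) and 5 lower (2.73%). *LHY* then stood at 5.56 (standard error 0.18, adjusted p = 0.000347 with edgeR) and *CCA1* at 5.54 (standard error 0.49, adjusted p = 0.00425). *TOC1* stood at −3.26 (standard error 0.18, adjusted p = 0.000927), and *ELF3*, *LUX* and *PRR5* at −1.90, −2.59 and −2.79. *ELF4* had no count in the 2 libraries that were left and was at least 122-fold lower than in WT, against a floor of 3 counts over both. *PRR9* stood at 4.64 (standard error 0.58, adjusted p = 0.00986). *PRR7* and *GI* passed in neither fit. Over the 15 alternatives the adjusted p ran from 0.00270 to 0.320 for *CCA1*, from 0.000347 to 0.432 for *LHY*, from 0.00986 to 0.436 for *PRR9* and from 0.000927 to 0.620 for *TOC1*. Leaving out any other single library gave 0 calls among the 10.

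**Figure D2:**
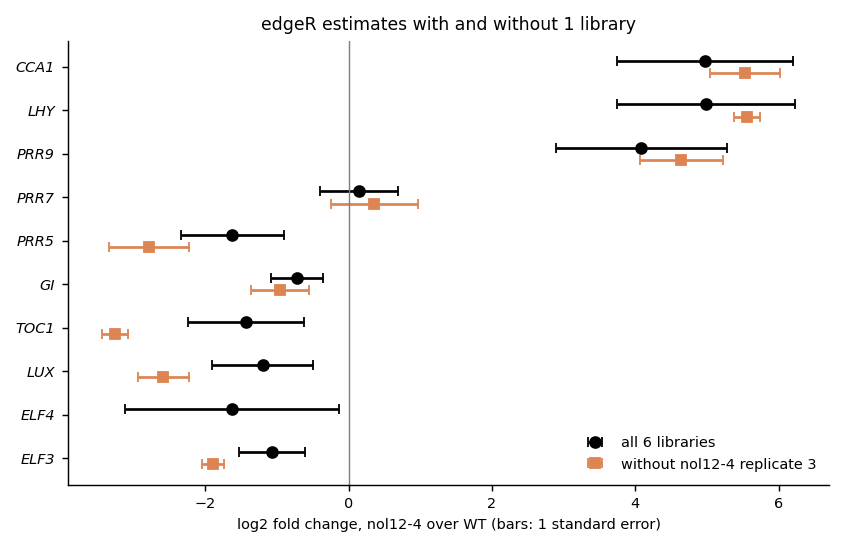
Log2 fold change of *nol12-4* over WT for the 10 clock genes by edgeR, with bars of 1 standard error, from all 6 libraries (black) and without *nol12-4* replicate 3 (orange). No orange point is drawn for *ELF4*, which then has no count in *nol12-4*. The bars of *LHY* and *TOC1* shrink from 1.24 to 0.18 and from 0.81 to 0.18 when the library is left out.

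The spread within a genotype was compared between the clock genes and all tested genes. In *nol12-4* the median range of log2 CPM over 3 libraries was 2.87 for the 10 genes and 0.50 for all tested genes, and in WT it was 1.13 and 0.50. A range over 2 was found in *nol12-4* for 7 of the 10 genes and for 3.6% of all tested genes, and in WT for 1 of 10 (*PRR9*) and 5.13%. The median range of the clock genes thus exceeded that of all tested genes in both genotypes, by the wider margin in *nol12-4*; the difference was not tested.

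Distances between libraries showed the same division. Over the 10 genes, *nol12-4* replicates 1 and 2 differed by a root mean square of 0.27 log2 units, and *nol12-4* replicate 3 differed from them by 3.93 and 3.92. From the WT libraries, by replicate number, it differed by 0.45, 0.46 and 0.87. Over all tested genes *nol12-4* replicate 3 had no such preference, with 0.72 and 0.75 to its own genotype and 0.76, 0.70 and 0.83 to WT. Replicate 3 lay inside the WT range for 7 of the 10 genes, and for 10267 of all 21705 tested genes. It lay outside that range by more than 2-fold for 0 of the 10, while replicates 1 and 2 were each more than 2-fold outside for 8 of 10. Over all tested genes that share was 8.24% for replicate 1, 9.17% for replicate 2 and 3.15% for replicate 3.

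**Figure D3:**
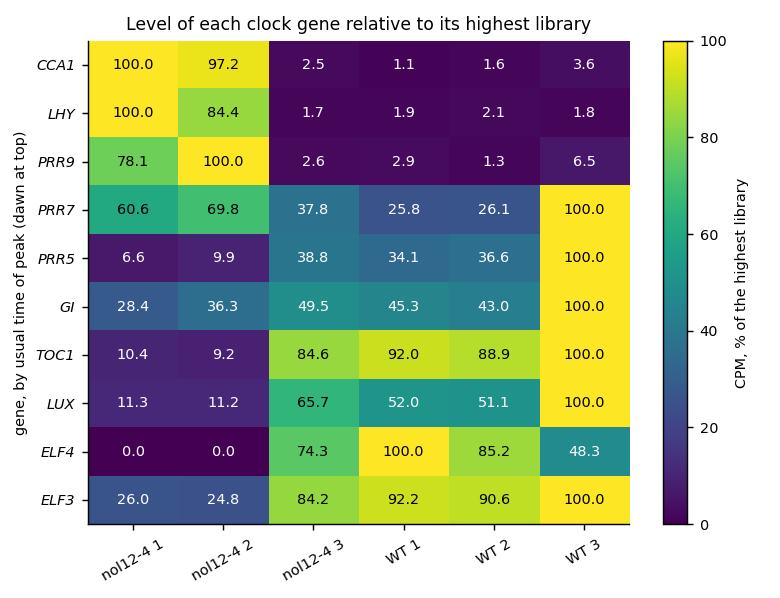
CPM of each clock gene as a percentage of its highest library, with genes in rows by their usual time of peak (dawn at the top) and the 6 libraries in columns. The top of the scale moves from *CCA1* and *LHY* in *nol12-4* replicate 1 to *PRR9* in *nol12-4* replicate 2, then to *PRR7*, *PRR5*, *GI*, *TOC1*, *LUX* and *ELF3* in WT replicate 3 and to *ELF4* in WT replicate 1.

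Which gene led in a library was read from CPM per kb of exon. Lengths came from RefSeq models and counts from Araport11 models, so this scaling for length is approximate. *CCA1* led in *nol12-4* replicates 1 and 2 with 35.6 and 34.6 CPM per kb, followed by *PRR7* (22.7 and 26.2) and *LHY* (17.1 and 14.5). *TOC1* led in *nol12-4* replicate 3 with 42.6 CPM per kb and in WT with 46.3, 44.8 and 50.4 CPM per kb. In WT replicate 3 *PRR5* came next with 48.9 CPM per kb. The *PRR5* model has 1677 exon bases and begins at its coding sequence, against 2808 bases for *TOC1*. Its level per kb can therefore be too high. In CPM, *PRR5* stood at 82.0 and *TOC1* at 141 in this library. The mean level per kb of *CCA1* and *LHY* over that of *TOC1*, *LUX* and *ELF4*, on the log2 scale, was 3.51, 3.54 and −5.0 in the *nol12-4* libraries and −5.77, −5.37 and −4.83 in the WT libraries, by replicate number. This ratio is a description and was given no test.

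Shares of counts between a pair of genes need no normalization, since both are read in the same library, and they are given with 95% Wilson intervals for counting error only. Of the counts on *CCA1* and *TOC1*, *CCA1* took 86.8% (86.1 to 87.5) and 87.8% (87.0 to 88.6) in *nol12-4* replicates 1 and 2 and 2.0% (1.74 to 2.31) in replicate 3. In WT it took 0.837, 1.20 and 2.43%. Of *TOC1* and *ELF3*, *TOC1* took 46.2, 44.4 and 68.3% in *nol12-4*, against 68.2, 67.8 and 68.2% in WT. The intervals of *nol12-4* replicate 3 and of the WT libraries overlapped, while those of *nol12-4* replicates 1 and 2 lay below them all.

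**Figure D4:**
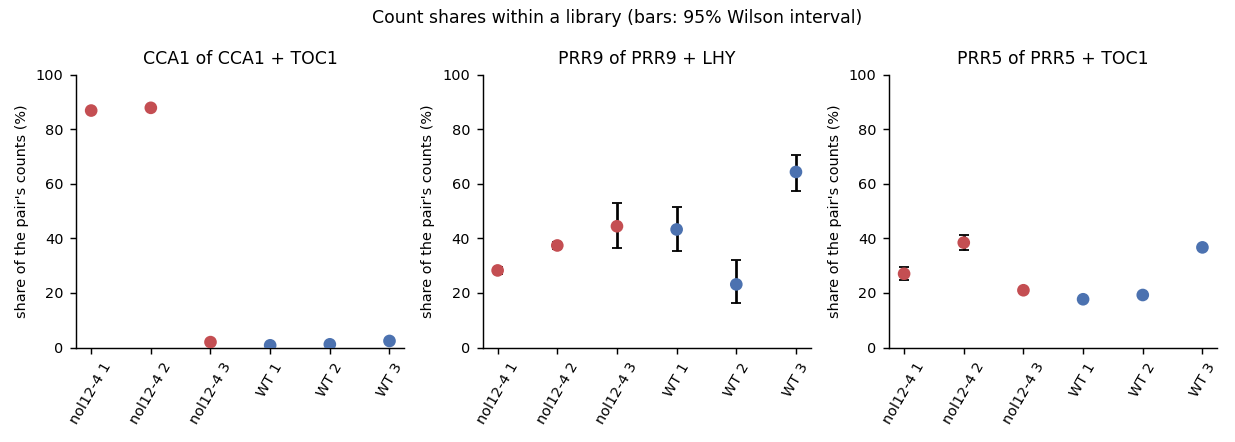
Share of a pair's counts taken by the gene named at the top of each panel, in percent, for each library (points; *nol12-4* red, WT blue) with 95% Wilson intervals, which in part are smaller than the points. *CCA1* exceeded *TOC1* in *nol12-4* replicates 1 and 2 only, with 86.8 and 87.8%, and the share of *PRR9* beside *LHY* was highest in WT replicate 3, at 64.3%.

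As a description set against the textbook order of peaks, the levels place the libraries in a sequence from morning to evening. *nol12-4* replicates 1 and 2 came first, with *CCA1*, *LHY* and *PRR9* high, *PRR7* at 60.6 and 69.8% of its highest library, and *TOC1*, *LUX* and *ELF4* at or near their lowest. Replicate 2 had more *PRR9*, *PRR5* and *GI* than replicate 1 (by 0.36, 0.58 and 0.36 on the log2 scale) and less *LHY* (−0.24). *PRR9* accordingly took 37.4% (36.0 to 38.8) of the counts on *PRR9* and *LHY* in replicate 2 and 28.3% (27.1 to 29.4) in replicate 1. These differences have the sign of a later point in the sequence for replicate 2. The evening genes did not share it, since *TOC1* (−0.17) and *ELF3* (−0.067) were lower in replicate 2. Nor did the share of *PRR9* beside *LHY* follow the order given below in WT, where it was 43.3, 23.1 and 64.3% by replicate number. The order of *nol12-4* replicates 1 and 2 is therefore uncertain, and each value rests on a single library.

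WT replicate 3 came next. Compared with WT replicate 1 it had more *PRR9*, *PRR7*, *PRR5*, *GI* and *LUX*, by 1.15, 1.96, 1.55, 1.14 and 0.94 on the log2 scale. It had less *ELF4*, by −1.05, while *TOC1* and *ELF3* differed by 0.12 each. *CCA1* was higher by 1.68, though at 3.64% of its highest library, and *LHY* was not (−0.090). *PRR5* took 36.7% (35.9 to 37.5) of the counts on *PRR5* and *TOC1* in this library, against 17.7% (17.0 to 18.4) in WT replicate 1. *PRR7*, *PRR5*, *GI* and *TOC1* were thus high together in this library, while *PRR9* stood at 6.46% of its highest library.

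WT replicates 1 and 2 came last, with the highest *ELF4* and the lowest *CCA1* and *PRR7*. *nol12-4* replicate 3 stood beside them. Compared with WT replicate 1 it differed in the direction of WT replicate 3 for *CCA1* (1.15), *PRR7* (0.55), *LUX* (0.34), *PRR5* (0.18), *GI* (0.13) and *ELF4* (−0.43), all on the log2 scale, so that it lay between WT replicate 3 and WT replicate 1 for these 6 genes. It did not lie between them for *LHY* (−0.22), *PRR9* (−0.15), *TOC1* (−0.12) and *ELF3* (−0.13). For *PRR9* this depended on the reference. Compared with WT replicate 2, *PRR9* was higher by 1.05 in *nol12-4* replicate 3 and by 2.35 in WT replicate 3. The implied order was therefore *nol12-4* replicates 1 and 2, WT replicate 3, *nol12-4* replicate 3 and then WT replicates 1 and 2. There was no firm order inside either pair. The places of WT replicate 3 and *nol12-4* replicate 3 each rest on 1 library and are uncertain. The evening genes *TOC1*, *LUX* and *ELF3* were highest in WT replicate 3 and not in the libraries placed last. This order assumes that peaks follow each other alike in both genotypes, which was not tested. With the hour of harvest not given, a difference between genotypes and a difference in the time of harvest cannot be told apart.

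The 5 other genes whose pattern over the 6 libraries was nearest to *CCA1* (root mean square difference of log2 CPM around each gene's mean) were *LNK3* (0.36), *LHCB2.3* (0.74), *BBX18* (0.75), *COL2* (0.81) and *JAL23* (0.82). *JAL23* had only 16 counts in *nol12-4* replicate 3 and 6, 1 and 4 counts in WT, so its pattern there lies near the floor. *LNK3* (AT3G12320), a light-inducible clock gene, stood at 56.8, 59.4 and 0.866 CPM in *nol12-4* and 0.338, 0.659 and 1.91 CPM in WT. It thus tracked *CCA1* more closely than *LHY* (0.59) or *PRR9* (0.61) did. Nearest to *TOC1* were *BBX8* (0.18), *RbcX1* (0.20), AT4G16146 (0.25), *HSFA8* (0.28) and AT2G39920 (0.29). *BBX8* (AT5G48250), which encodes a B-box protein, stood at 3.76, 3.69 and 38.5 CPM in *nol12-4* and 44.1, 42.5 and 53.9 CPM in WT, and among the 10 clock genes *LUX* was nearest to *TOC1* (0.43).

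A list of 28 further clock genes gave the same picture for part of its members. edgeR called 0 of them in either direction, where 5 stood higher and 1 lower with p below 0.05 before adjustment (12.1% and 7.91% of all tested genes). DESeq2 called 4 higher and 0 lower of 25 (6.2% and 3.21% of all genes). The median log2 fold change of the list was −0.11, beside −0.0091 for all tested genes. The fit without *nol12-4* replicate 3, singled out by clock gene values, is a description. In it edgeR called 5 higher and 8 lower (4.71% and 2.73% of all genes in that fit). Those higher were the MYB genes *RVE8* and *RVE1*, which are relatives of *CCA1*, and the co-activator genes *LNK1*, *LNK2* and *LNK3*. Those lower were *RVE2*, *PRR3*, the F-box gene *FKF1*, *BOA* (a relative of *LUX*), the cold-regulated gene *COR27*, AT4G33980, *ELF4-L4* and *JMJD5*.

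*RVE8*, which encodes an activator of evening genes, stood at 25.2, 22.7 and 0.414 CPM in *nol12-4* and 1.47, 1.21 and 0.910 CPM in WT. *COR27* stood at 0.421, 0.222 and 61.2 CPM in *nol12-4* and 57.9, 56.7 and 71.1 CPM in WT, the widest range of the list within *nol12-4*. Other members varied less. *LWD1*, a WD-repeat gene, stood at 15.2, 15.4 and 19.9 CPM in *nol12-4* and 16.1, 14.3 and 20.5 CPM in WT, and *ZTL* at 20.7, 30.9 and 23.8 CPM in *nol12-4* and 23.5, 24.7 and 36.7 CPM in WT. For 13, 14 and 1 of the 28 genes, by replicate number, the *nol12-4* library lay more than 2-fold outside the WT range.

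**Figure D5:**
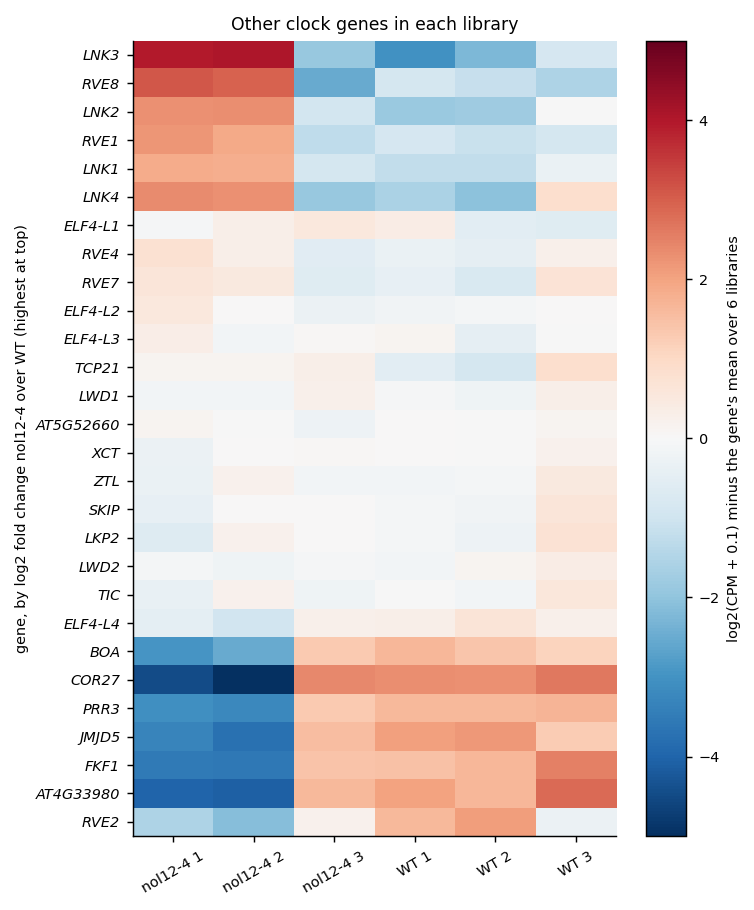
Level of 28 further clock genes in each library as log2(CPM + 0.1) minus the gene's mean over the 6 libraries, with genes ordered by their log2 fold change. The rows at the top (*LNK3*, *RVE8*, *LNK2*) are red and those from *BOA* to *FKF1* are blue in *nol12-4* replicates 1 and 2, while in these rows replicate 3 has the colours of most WT libraries, and the rows in the middle are pale throughout.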

How the data were processed

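Total RNA was depleted of rRNA and sequenced as stranded paired-end libraries. The authors aligned reads to TAIR10 (Ensembl release 29) with HISAT2 (version 2.0.4), and the deposited values are raw counts per Araport11 gene from HTSeq (version 0.6.0, reverse strand), without normalization. The 5 summary lines of each file (20.6 to 25.1% of its total) were left out. Reads aligned to more than 1 place were not counted.

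*nol12-4* was set against WT with edgeR 4.0.16 under R 4.3.3, using filterByExpr, TMM, a robust quasi-likelihood fit with genotype as the only term, two-sided, Benjamini-Hochberg adjustment over all tested genes at 0.05. The procedure was tested on simulated counts in which all libraries of a genotype shared a common mean for each gene. That setting differs from the split of the clock genes within *nol12-4*, so the simulation does not cover it. As alternatives, the comparison was repeated by DESeq2 1.42.0, by voom from limma 3.58.1, by a fit without robust estimation, with other normalizations, no filter, organelle genes left out, a replicate block, and each library left out. Standard errors of edgeR estimates were taken as the absolute log2 fold change divided by the square root of the F statistic. Log2 CPM for ranges, distances, correlations and nearest patterns used a prior count of 2. Log2 differences between single libraries were ratios of CPM without a prior count. Exon lengths and promoters came from the RefSeq annotation of TAIR10.1, whose assembly name differs from that of the authors' build. The deposited files hold no coordinates, and all positions given are those of TAIR10.1. Depth was 56627497 to 75001252 counts per library.

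Genes named are the 10 clock genes, the 5 nearest in pattern to *CCA1* and to *TOC1*, and, from lists of 28 further clock genes and 10 clock outputs, those that passed a test or head the list. *LWD1* and *ZTL* were chosen after their values were seen. The members and lists were chosen with earlier results of these data known.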

Additional observations from a re-analysis of the deposited data

How the results depend on the processing

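Among the 10 clock genes, edgeR called 0 under every alternative that kept all 6 libraries, and limma-voom also called 0, while DESeq2 called 3 higher. Leaving out each library in turn gave 0 to 3 higher and 0 to 5 lower, and 0 to 5 and 0 to 8 of the 28 further clock genes, where DESeq2 called 4 higher; the calls came without *nol12-4* replicate 3 alone. Over all genes, edgeR's 49 higher and 15 lower became 1498 and 776 with DESeq2, 376 and 51 with library size alone, 142 and 41 without the filter, and 0 to 1038 and 0 to 601 with each library left out. The 0 came without *nol12-4* replicate 1 or 2 or WT replicate 1 or 2, where 2989, 2821, 2797 and 3721 genes had p below 0.05 before adjustment. A replicate block gave 1 higher and 0 lower, and 4274 genes had p below 0.05 before adjustment. Whether replicate numbers pair the samples is not known. Same-numbered libraries deviated from their genotype means with correlations of 0.16, −0.11 and 0.035, and 1 of 3 *nol12-4* libraries correlated best with its own number. With 3 libraries a genotype this cannot exclude a shared harvest. Over all tested genes WT replicate 3 differed from WT replicates 1 and 2 by a root mean square of 0.80 and 0.82, against 0.44 between those. For *nol12-4* these values were 0.72 and 0.75, against 0.54. *PRR7* reversed to −0.047 without *nol12-4* replicate 2 and to −0.17 without WT replicate 1 or 2, within a leave-one-out range of −0.17 to 1.11, and the cause was not tested. The other 9 genes kept their direction under all 15 alternatives. With library size alone, the median log2 fold change over all genes was 0.092. With 3 libraries a genotype, an exact permutation test of 1 value could not go below p = 0.1.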

Other observations

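Clock outputs that were not described above were measured in a list of 10 genes. *CDF1*, which encodes a DOF repressor of flowering genes in the morning, stood at 15.5, 12.9 and 3.09 CPM in *nol12-4* replicates 1, 2 and 3, against 2.87, 2.35 and 1.27 CPM in WT. Its libraries did not overlap, since *nol12-4* replicate 3 also lay just above WT. The log2 fold change was 2.28 (standard error 0.59), with an adjusted p of 0.108 by edgeR and 0.00132 by DESeq2. *CO*, the photoperiod activator of flowering, stood at 0.245, 0.342 and 0.931 CPM in *nol12-4* and 1.84, 2.43 and 1.48 CPM in WT. It too did not overlap, with an estimate of −1.91 (standard error 0.53) and an adjusted p of 0.12 by edgeR and 0.00696 by DESeq2. In this list 1 gene did not overlap in the higher direction and 3 in the lower, against 14.5% and 11.6% of all tested genes. *GRP7*, which encodes a clock-controlled RNA-binding protein, stood at 4.06, 8.46 and 55.1 CPM in *nol12-4* and 51.5, 53.8 and 161 CPM in WT. Of the 10 genes edgeR called 0, where 2 stood higher and 3 lower with p below 0.05 before adjustment (12.1% and 7.91% of all tested genes), and DESeq2 called 1 higher and 1 lower of 9 (6.2% and 3.21%). The fit without *nol12-4* replicate 3, again a description, called 4 higher and 3 lower by edgeR (4.71% and 2.73% of all genes in that fit). *CDF1* was then at 2.71 (adjusted p = 0.00966 with edgeR), *GRP7* at −3.83 (adjusted p = 0.0253) and *CO* at −2.71 (adjusted p = 0.0175).

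*PIF4* and *PIF5* encode growth-promoting bHLH factors. *PIF4* stood at 17.9, 23.0 and 6.36 CPM in *nol12-4* and 2.20, 1.30 and 21.0 CPM in WT. *PIF5* stood at 107, 82.3 and 25.5 CPM in *nol12-4* and 20.3, 11.4 and 73.1 CPM in WT. Both were higher in WT replicate 3 than in the other WT libraries and *nol12-4* replicate 3, and WT spread over 3.98 log2 units for *PIF4*. The estimates were 0.95 for *PIF4* (adjusted p = 0.627 with edgeR) and 1.03 for *PIF5* (adjusted p = 0.473 with edgeR).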
